A study of Capra hircus with 24 samples.

Results

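The caseins are the main proteins of ruminant milk, and their genes were followed here across milk and blood RNA of goats. The members are all non-control probes that the array's design assigns to the cattle RefSeq transcripts of CSN1S1 (αs1-casein, NM_181029), CSN1S2 (αs2-casein, NM_174528), CSN2 (β-casein, NM_181008) and CSN3 (κ-casein, NM_174294). Of these 4 genes 3 had a probe, among 26748 accessions on the array. They come to 13 of 43653 probes, with 6 probes of CSN1S1, 5 of CSN1S2 and 2 of CSN3. CSN2 had 0 probes and is not analysed here. The gene names come from those cattle identifiers, since the files pair probes with accessions and with no gene symbols.

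Casein genes are transcribed in the secretory epithelial cells of the lactating mammary gland, under the lactation hormone prolactin, whose signal passes through JAK2 and STAT5. The αs- and β-caseins bind calcium phosphate, and κ-casein sits at the surface of the casein micelle and keeps it in suspension. The goat αs1-casein gene is also known for alleles that differ in how much protein they give. In the goat gene table provided (RefSeq, assembly ARS1.2) the genes lie on one chromosome in the order CSN1S1, CSN2, CSN1S2, CSN3.

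The animals were 8 healthy female goats in lactation 3, of which 4 belonged to the breed Polish White Improved, PWI for short, and the other 4 to Polish Fawn Improved, or PFI. RNA was taken from milk somatic cells (MSC, a mixture of leukocytes and shed epithelial cells), from peripheral nuclear blood cells (PNCB) and from milk fat globules (MFG, secreted droplets that enclose some cytoplasm of the epithelial cell). The 6 groups of source and breed held 4 arrays each, 24 in all. Every array carried a goat sample in Cy5 and one common reference in Cy3. That reference pooled peripheral nuclear blood cells of 7 healthy goats in lactation 4 (4 PWI and 3 PFI). The design text places a sampling after the lactation period had ended and does not say whether this covers more than the reference goats. No dye swap was made. The array was designed for cattle, so a probe can read low where the goat sequence differs. A Qiagen lipid tissue kit served both milk sources and a different kit served blood, which had its erythrocytes lysed. Extraction kit therefore cannot be told apart from source where milk is compared with blood. The 4 arrays of a group shared a slide that no other group was on, so that the slide cannot be told apart from breed inside one source. The MFG arrays were scanned on another day than the rest, so scan day cannot be told apart from source where MFG is compared. Slides were not shared between sources either, so slide and source cannot be fully separated. In bulk RNA, fewer cells of a type and less RNA per cell cannot be told apart. Defining markers of epithelium and leukocytes were not checked here, for want of gene names.

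Cy5 signal was well above background for 51.2% to 60.9% of all probes on the MSC arrays, 57.5% to 65.6% on the PNCB arrays and 44.1% to 84.6% on the MFG arrays. The 2 MFG arrays at the top of that range, PWI goats 2 and 4, were also high in the reference channel, with 88.0% and 71.5% of probes above background in Cy3. Each casein probe had 1 spot per array and no casein spot was saturated. The number of arrays limits the precision of what follows.

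All casein probes were bright in both milk sources and near background in blood. Net Cy5 intensity, the spot's median minus its local background, is given first because it is the rawest level. Probe A_73_100438 of CSN1S1 read 160254, 118194, 155304 and 149671 in MFG of PWI goats 1 to 4 and 156691, 139212, 143045 and 127920 in MFG of PFI goats 1 to 4. It read 114974, 103211, 85272 and 79938 in MSC of the PWI goats and 106640, 102383, 92076 and 87707 in MSC of the PFI goats. The 8 MFG values all lay above the 8 MSC values for this probe. In blood it read 11, 0.5, 5.5 and 19.5 in the PWI goats and 498, 7.5, 8 and 5 in the PFI goats, so PFI goat 1 stood apart. The spot of PWI goat 4 was among 6 casein spots given no value in the fits, because the scanner software marked their local background as an outlier.

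Among the CSN1S2 probes, A_73_P287836 had a net Cy5 of 313781 to 333522 in MFG (median 327146), of 194471 to 265331 in MSC (median 213180) and of 0 to 253 in PNCB (median 7.5). The source ranges of this probe did not overlap. For CSN3, A_73_111101 had a net Cy5 of 214924 to 257359 in MFG (median 241509), 96520 to 167842 in MSC (median 129496) and 1.5 to 185 in PNCB (median 4.5), again without overlap. The second CSN3 probe, A_73_P107731, ranged from 60349 to 71062 in MFG, overlapping its MSC range of 28590 to 62827. The plot of net intensity by array shows all 13 probes.

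**Figure D1:**
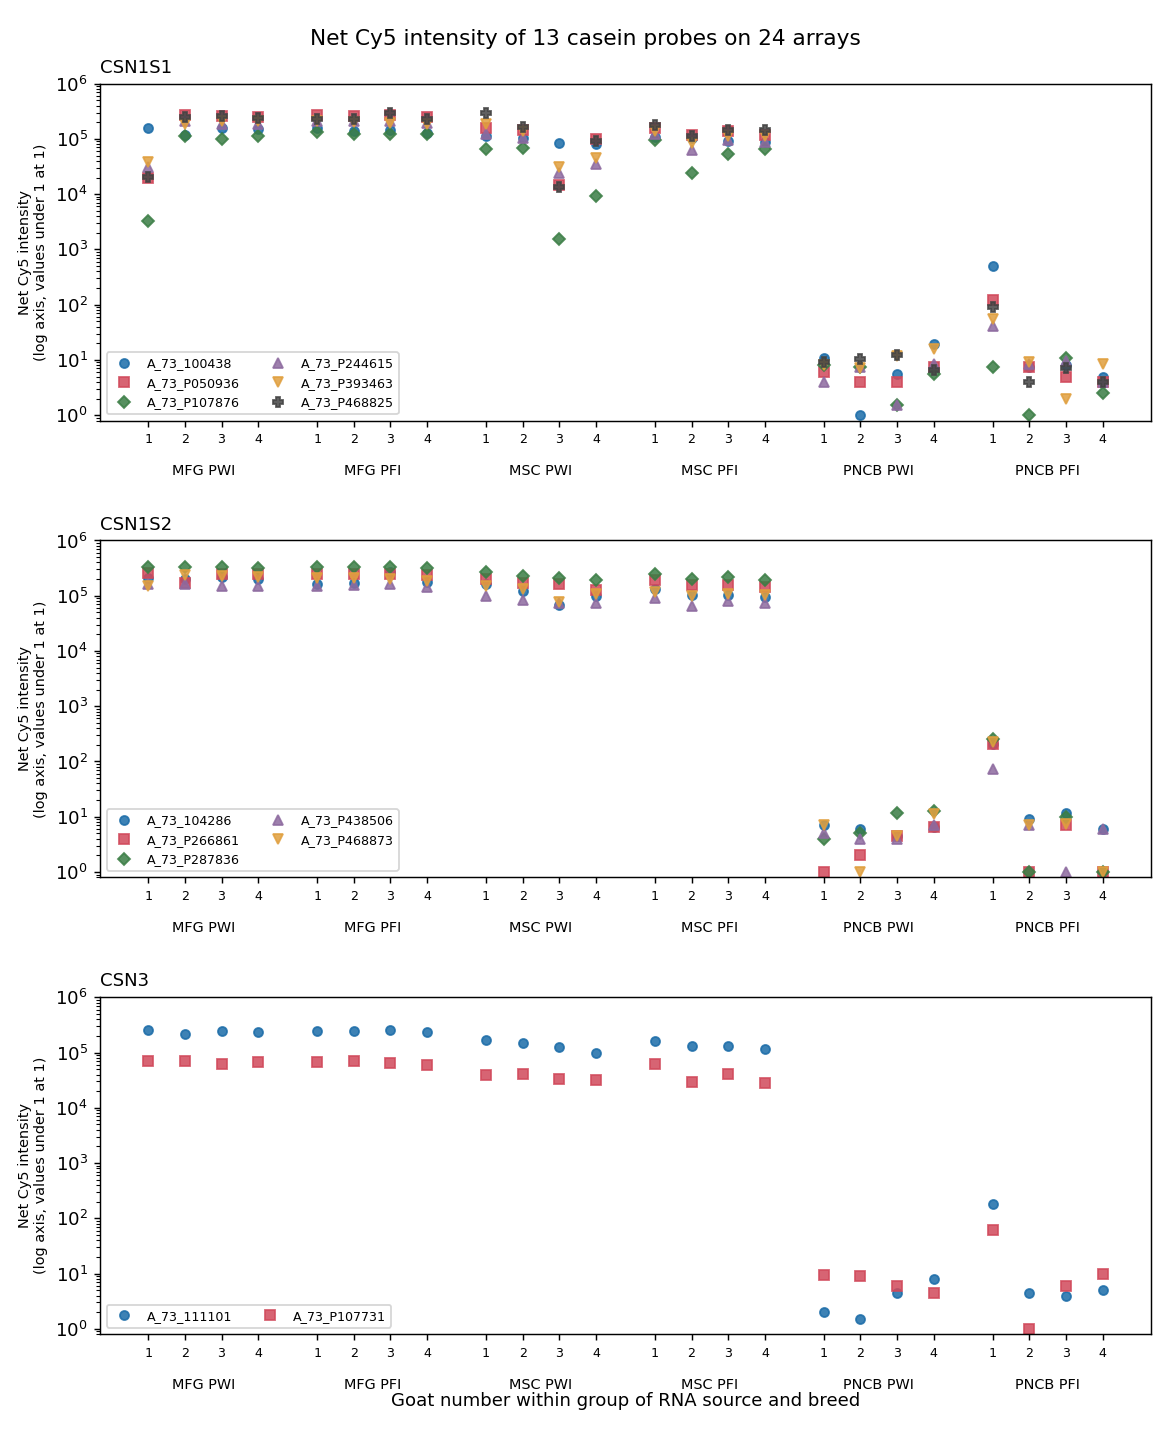
Net Cy5 intensity (log axis, values under 1 drawn at 1) of each casein probe on each of the 24 arrays, in groups of RNA source and breed, with the goat number on the horizontal axis and 1 point per probe. Milk arrays lie between 1560 and 333522 and blood arrays at or below 498, with 5 CSN1S1 probes low on the arrays of MFG PWI goat 1 and MSC PWI goat 3, and PNCB PFI goat 1 above the other blood arrays.

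Of the blood arrays, PFI goat 1 had 12 of 13 casein probes above background in Cy5, with net values of 40.5 to 498 for those 12. PWI goat 4 had 1, at the spot without a value, and the other blood arrays had 0. On PFI goat 1 the casein signal was 0.0127% to 0.512% of the median over the MSC arrays, probe by probe. Outside the caseins, 92 probes passed on every one of the 16 milk arrays and on exactly 1 blood array. That array was PFI goat 1 for 20 of them, PWI goat 2 for 21 and each of the others for 5 to 11. The part that milk RNA, another array or the animal played in these values was not tested.

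On 2 milk arrays of PWI goats, MFG goat 1 and MSC goat 3, 5 of the 6 CSN1S1 probes were far lower than on the others of the same source. The remaining casein probes stood on these arrays at 65.4% to 112% of the median of the others. Probe A_73_P107876 read 3304 in MFG of PWI goat 1, against 110938, 98123 and 113697 in PWI goats 2 to 4 and 134585, 120600, 121256 and 122641 in PFI goats 1 to 4. PWI goat 1 was 36.5-fold below the median of the other 7 MFG arrays. In MSC the same probe read 65803, 69003, 1560 and 9080 in PWI goats 1 to 4 and 93983, 24620, 52418 and 65274 in PFI goats 1 to 4. PWI goat 3 was 41.8-fold and PWI goat 4 was 7.19-fold below the median of the other MSC arrays.

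On MFG of PWI goat 1, A_73_P050936 stood at 7.58%, A_73_P468825 at 8.50%, A_73_P244615 at 15.2%, A_73_P393463 at 19.1% and A_73_P107876 at 2.74% of the median of the other MFG arrays. All 5 lay below every other MFG array. The sixth, A_73_100438, stood at 112% and was the brightest of the MFG arrays. CSN1S2 probes of that array ranged from 69.9% to 107.7%, and the CSN3 probes stood at 104.6% and 104.7%. Of CSN1S2, A_73_P468873 at 69.9%, was also the lowest of the MFG arrays.

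On MSC of PWI goat 3 the same 5 probes stood at 2.39% to 27.2% of the median of the other MSC arrays, each the lowest of its source, while A_73_100438 stood at 83.3%. CSN1S2 ranged there from 65.4% to 102.2%, with 2 of its 5 probes, A_73_104286 and A_73_P468873, the lowest of the MSC arrays. CSN3 ranged from 83.0% to 97.9%. On MSC of PWI goat 4, A_73_P107876 stood at 13.9%, A_73_P244615 at 36.8%, A_73_P393463 at 39.7%, A_73_P468825 at 61.1% and A_73_P050936 at 73.2%. The other casein probes of that array ranged from 74.5% (A_73_111101) to 102.6%, so A_73_P050936 lay close to them. A_73_111101, A_73_P266861 at 77.7%, A_73_100438 at 78.1% and A_73_P287836 at 90.1% were each the lowest of the MSC arrays there. The low MFG array and the low MSC arrays carry different goat numbers, and the labels do not say that a number marks one animal across sources. These arrays were picked out after their values were seen, so no test is given. Where on the transcript each probe lies was not analysed here, and neither genotype nor probe binding was tested.

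**Figure D2:**
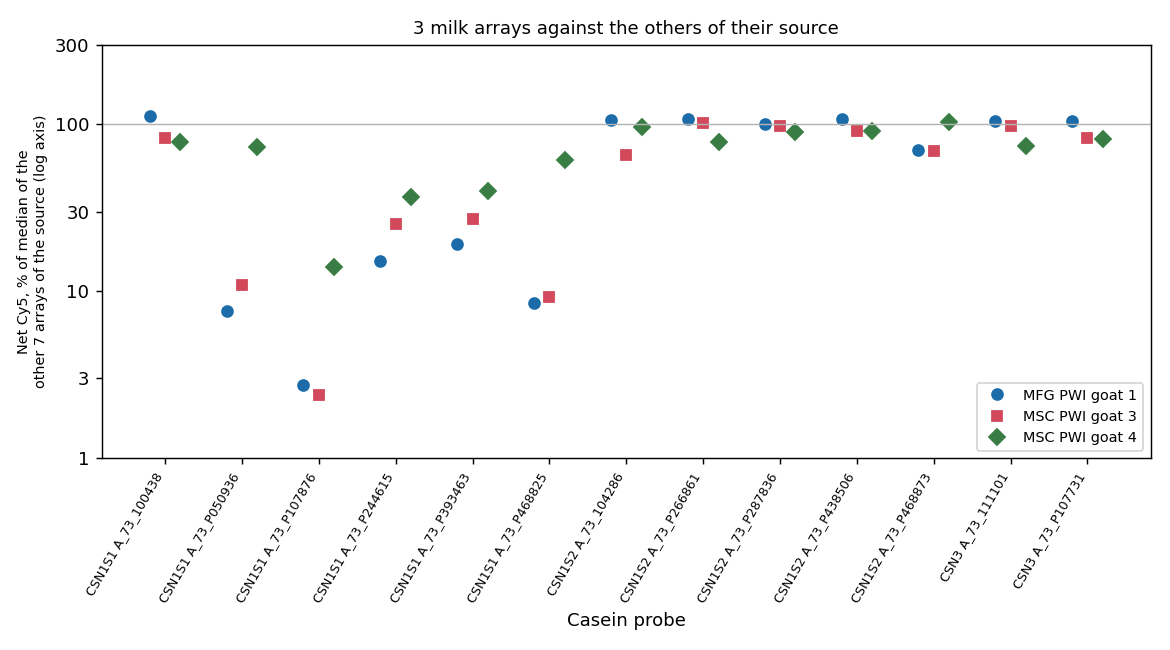
Net Cy5 of each casein probe on the arrays of MFG PWI goat 1, MSC PWI goat 3 and MSC PWI goat 4, as a percent of the median of the other 7 arrays of the same source (log axis, 1 point per probe and array, line at 100%). On the first and second of these arrays 5 CSN1S1 probes reach down to 2.74% and 2.39%, while A_73_100438 and the probes of CSN1S2 and CSN3 stay between 65.4% and 112%.

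Ratios to the blood reference put MFG highest, MSC next and PNCB at the reference for each gene. Over its probes, the log2 ratio of CSN1S1 averaged 7.16 ± 0.196 over the MFG arrays (SD, n = 8), 5.74 ± 0.244 over the MSC arrays and -0.038 ± 0.377 over the PNCB arrays. CSN1S2 had 9.10 ± 0.379, 7.50 ± 0.234 and -0.11 ± 0.485, in the same order. CSN3 had 8.90 ± 0.245, 6.86 ± 0.275 and 0.014 ± 0.365. For none of the 3 genes did the ranges of the milk sources overlap on this scale. The lowest MFG mean was 6.91 against a highest MSC mean of 6.05 for CSN1S1, 8.62 against 7.83 for CSN1S2 and 8.58 against 7.27 for CSN3. The 6.91 was that of MFG PFI goat 4, where A_73_P244615 had no value, so that mean rests on fewer probes than the other MFG means.

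**Figure D3:**
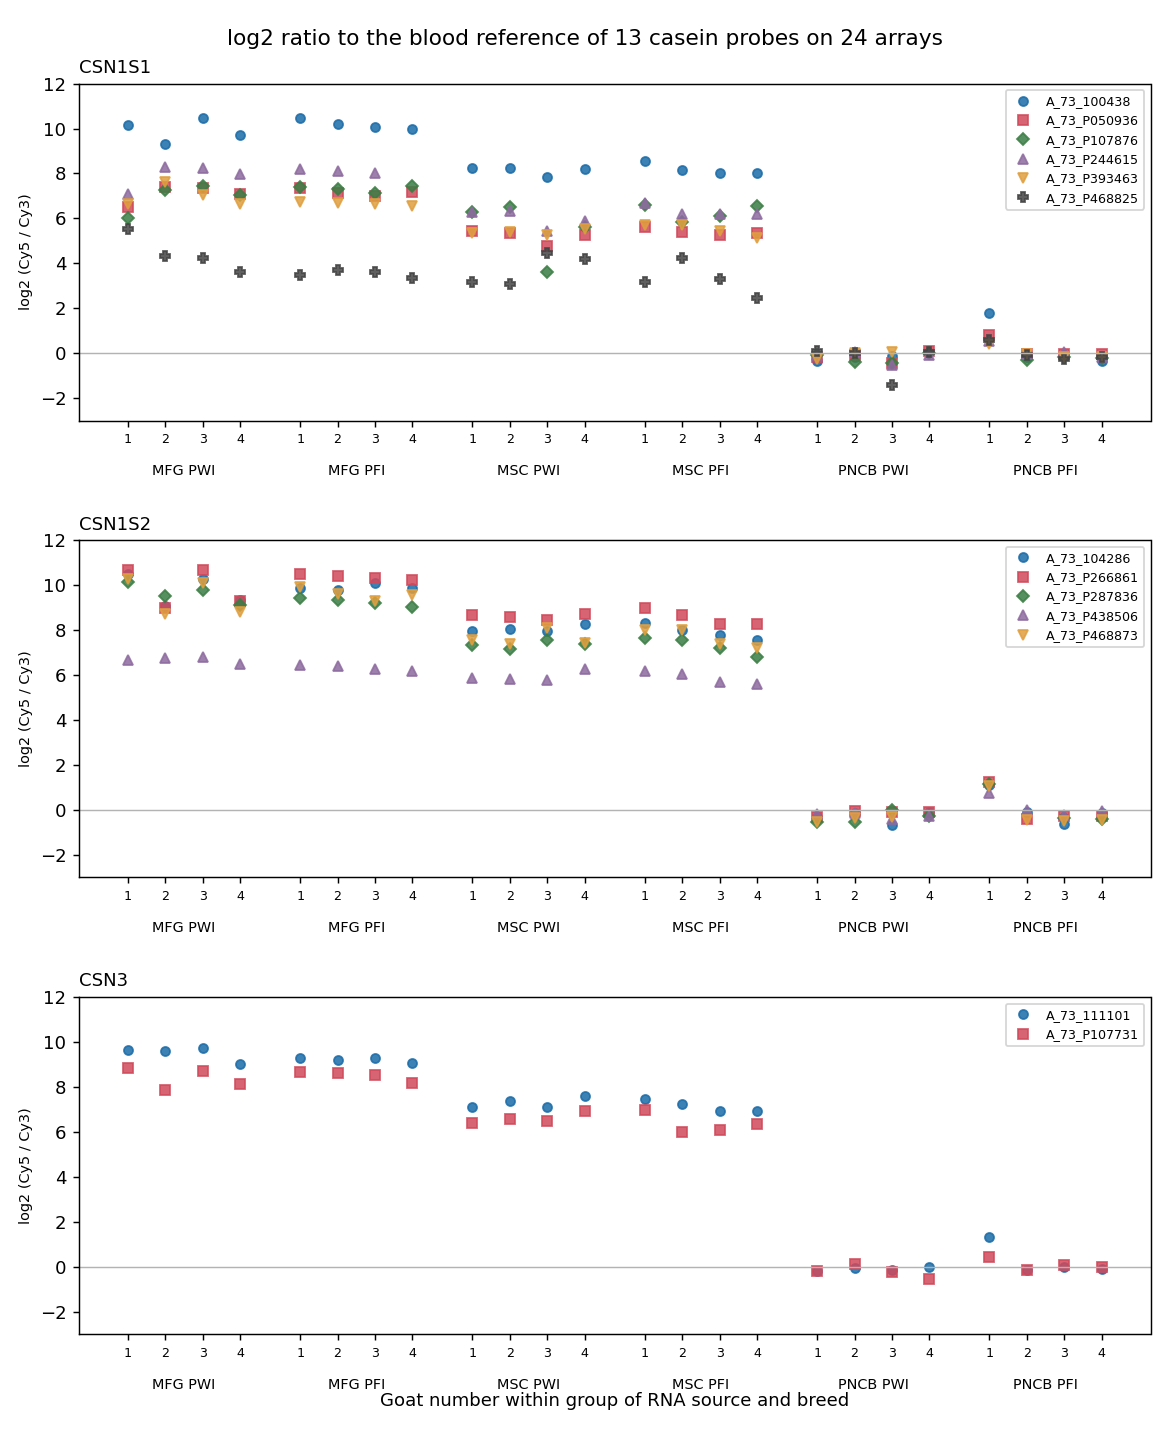
log2 of Cy5 over Cy3 of each casein probe on each of the 24 arrays, in groups of RNA source and breed (1 point per probe, horizontal line at 0). Most blood values lie near 0, but PFI goat 1 reaches up to 1.80 and PWI goat 3 down to -1.42 at A_73_P468825. The milk values of one gene's probes are spread widely, in CSN1S1 from 2.47 for A_73_P468825 to 10.47 for A_73_100438.

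The comparison of MFG with PNCB asks how far casein RNA of the fat globules exceeds that of blood. All 13 of 13 probes were higher in MFG at an adjusted p under 0.05, where 25.7% of all 27405 probes tested were higher. The median log2 difference of the casein probes was 8.50, against -0.13 over all probes. Adjusted p-values from limma ran up to 2.29e-11 over the 13 probes. For each of the 13, every MFG array lay above every PNCB array, as did 8.44% of all probes. In blood, 11 of the probes were above background on 1 of 8 arrays, A_73_100438 on 2 and A_73_P107876 on 0, so the sizes of these differences rest on blood signals near background and the probes are not ranked by them. Without blood PFI goat 1 the count was again 13, where 6839 of all 27400 probes were higher, and the median was 8.56.

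MSC against PNCB gave the same count, with 13 of 13 probes higher where 22.6% of all 27411 probes tested were. The median log2 difference was 6.54, against -0.038 over all probes, and the largest adjusted p from limma was 4.39e-10. Every MSC array lay above every PNCB array for all 13 probes, and for 9.42% of all probes. With a normexp offset of 10 in place of 50 the medians against blood were 7.14 for MSC and 8.98 for MFG. Without blood PFI goat 1 the median was 6.60. A fit drops arrays whose spot had no value, which left 7 PNCB arrays for A_73_100438, A_73_P107876, A_73_P393463, A_73_P287836 and A_73_P468873, and 7 MFG arrays for A_73_P244615.

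On the Cy5 channel alone, quantile normalized between arrays, all 13 probes were again higher in MFG (30.7% of all probes were) and in MSC (23% were). No PNCB array measured the CSN1S1 probe A_73_P107876 well above background, so for this probe a floor was put in place of the blood level. The floor of an array was its faintest probe well above background, or this probe's own value where that was higher. It was set in Cy5 after loess and then quantile normalization of each spot's mean over both channels, on the 7 PNCB arrays with a value. On this scale MFG (mean log2 16.02) stood 1082-fold and MSC (mean log2 14.22) 310-fold above the mean floor of these arrays. That floor was 5.95 and their measured mean was 5.94, so these folds are close to the measured ones. The floor is not a detection limit, and the folds are differences of means and carry no interval. On the ratio the probe's log2 differences from PNCB were smaller, 7.35 for MFG and 6.12 for MSC. The adjusted p-values of its ratio were 8.40e-15 and 4.13e-13 in limma.

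The reference channel itself differed between milk and blood arrays at the casein probes. Cy3 held the same blood pool on every array, yet the median net Cy3 of each of the 13 casein probes was higher over the MFG arrays and over the MSC arrays than over the blood arrays. Single blood spots went against this, with a net Cy3 of 797.5 at A_73_100438, 454 at A_73_P393463 and 1102 at A_73_P468873, all on PWI goat 4 and without a value in the fits. At A_73_P468825 (CSN1S1) net Cy3 was 401, 8581, 7251 and 7723 on MFG arrays of PWI goats 1 to 4 and 7570, 7250, 9115 and 8387 on those of PFI goats. On MSC arrays it was 7196, 4663, 189 and 1396 in PWI goats and 5652, 1598, 3300 and 4440 in PFI goats. On blood arrays its median was 42.3. The milk arrays on which Cy5 of this probe was low, MFG PWI goat 1 and MSC PWI goat 3, were the lowest of their source in Cy3 also.

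Tested in Cy3 alone, 13 of 13 casein probes were higher on MSC than on PNCB arrays, where 0.762% of all probes were. On MFG arrays 13 of 13 were higher than on PNCB arrays, where 16.8% of all probes were. The MSC minus PNCB difference in Cy3 ranged from 0.85 ± 0.0896 (log2, SE) at A_73_100438 to 5.43 ± 0.574 at A_73_P468825. Net Cy3 came to a median of 0.0625% of net Cy5 at A_73_P266861 and of 2.94% at A_73_P468825 over the milk arrays. Across the 16 milk arrays the Pearson r of log2 net Cy3 with log2 net Cy5 was 0.947 to 0.982 for the 5 CSN1S1 probes with low arrays, 0.991 for A_73_P438506 (CSN1S2) and -0.446 to 0.585 for the others. The points share slides and sources, and these r values are a description. The cause was not tested. 

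At A_73_P468825 the ratio ran opposite to Cy5 on both arrays with low signal. On MFG PWI goat 1 its net Cy5 was 20150, the lowest of the MFG arrays, where the others ranged from 229953 to 293614. Its log2 ratio there was 5.53, the highest of the MFG arrays, where the others ranged from 3.37 to 4.30, and net Cy3 was 19.3-fold below the median of the others. The same was seen for MSC PWI goat 3, with a net Cy5 of 13528 and the highest MSC ratio, 4.48.

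**Figure D4:**
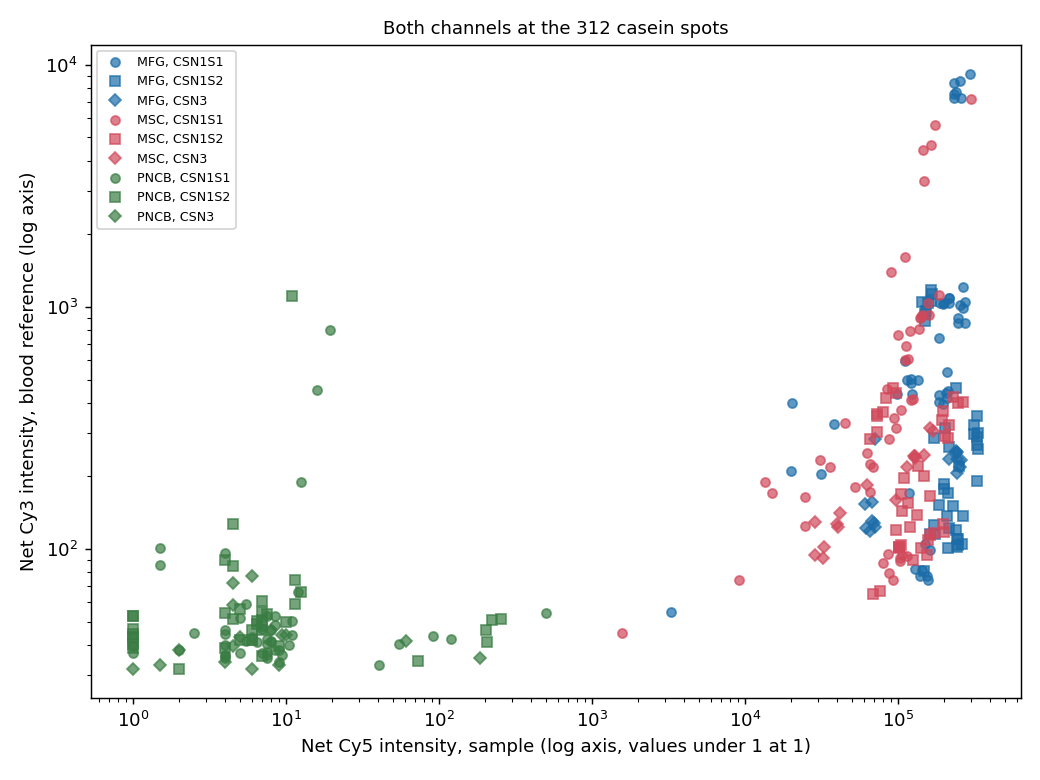
Net Cy3 intensity (blood reference) against net Cy5 intensity (sample) at the 312 casein spots, both on log axes, with colour for RNA source and shape for gene. Blood spots have a median Cy3 of 37.3 to 53.8 by probe and milk spots reach 9115, the highest being those of A_73_P468825 in MFG.

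MFG against MSC compares the milk sources. On the ratio, 12 of 13 probes were higher in MFG, where 12.8% of all probes were, and the median log2 difference was 1.87 against -0.021 over all probes. The exception was A_73_P468825, with a difference of 0.48 ± 0.288 and an adjusted p of 0.211 in limma. Every MFG array lay above every MSC array for 10 of 13 probes, and for 1.08% of all probes. The others with overlap were A_73_P107876 and A_73_P438506.

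By gene, both CSN3 probes were higher in MFG, A_73_111101 by 2.13 ± 0.166 (adjusted p 7.15e-09, limma) and A_73_P107731 by 1.96 ± 0.159. All 5 CSN1S2 probes were higher, from 0.60 ± 0.123 for A_73_P438506 to 2.12 ± 0.196 for A_73_P287836. Of the 6 CSN1S1 probes 5 were higher, from 1.23 ± 0.295 for A_73_P107876 to 1.89 ± 0.230 for A_73_100438. The probe with the smallest CSN1S2 difference, A_73_P438506, was also the only one whose Cy3 passed the test as higher in MFG than in MSC, by 0.59 ± 0.0664, where 9.29% of all probes did. The Cy3 of 6 casein probes passed as lower, where 10.3% of all probes did.

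The size of the difference between the milk sources, and most of its calls, depended on the scale. With Cy5 alone, quantile normalized, 2 of 13 probes were higher in MFG, where 23.2% of all probes were. These were A_73_P438506 at 0.42 ± 0.116 (adjusted p 0.00483, limma) and A_73_P107731 at 0.56 ± 0.154 (adjusted p 0.00485). The median log2 difference was 0.24, A_73_P266861 stood at -0.091 ± 0.200, and every MFG array lay above every MSC array for 1 of 13 probes and for 7.28% of all probes. Quantile normalization gives the brightest ranks of every array the same values, and caseins are among those ranks. With Cy5 scaled instead to each array's 75th percentile, a scaling chosen after seeing the data, 13 of 13 probes were higher, where 45.3% of all probes were, with a median of 1.32. That scaling moved the median of all probes to 0.32. With median centring of the ratios in place of loess, 8 of 13 were higher, where 3.17% of all probes were, with a median of 0.74, and the median of all probes lay at -0.61.

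**Figure D5:**
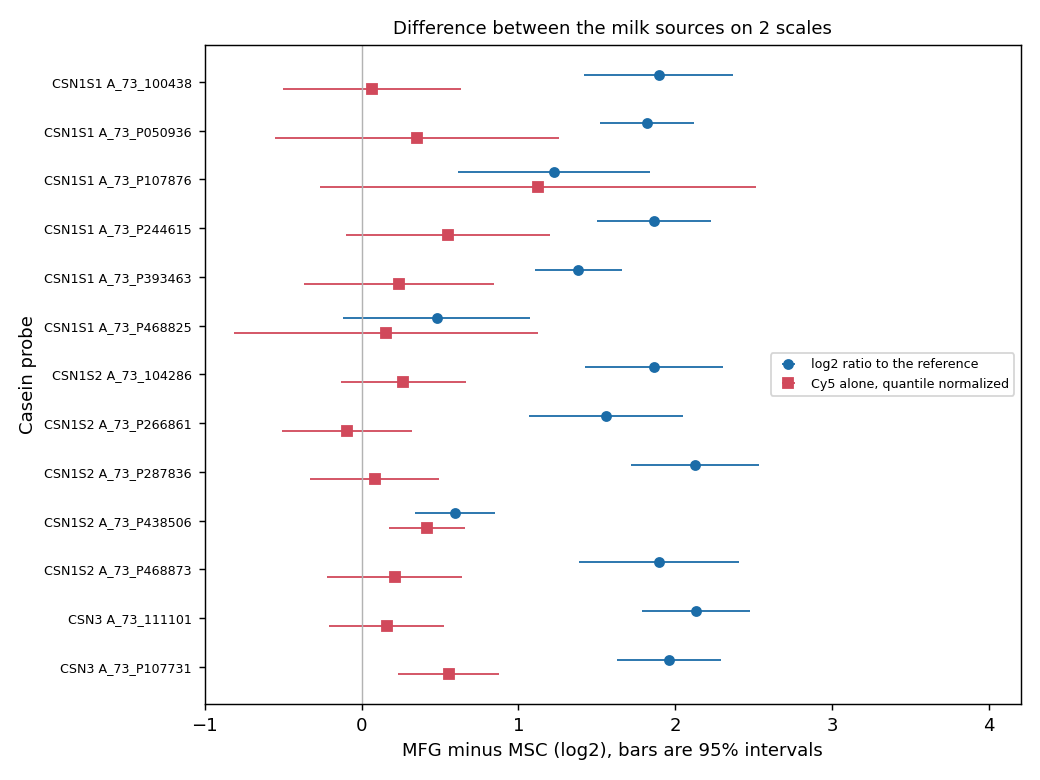
MFG minus MSC in log2 for each casein probe with its 95% interval, from limma fits of the log2 ratio (circles) and of Cy5 alone after quantile normalization (squares). On the ratio the intervals of 12 probes lie above 0, and on Cy5 alone those of A_73_P438506 and A_73_P107731 do.

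The summed net Cy5 of the 13 probes was also taken as a share of that of all non-control spots, which needs no reference and no quantile step. The share was 4.49%, 5.44%, 7.54% and 6.30% in MFG of PWI goats 1 to 4 and 6.87%, 6.75%, 6.64% and 6.43% in MFG of PFI goats. In MSC it was 4.15%, 3.73%, 2.32% and 3.48% in PWI goats and 5.28%, 3.20%, 2.89% and 3.52% in PFI goats. The MSC value of PFI goat 1 lay above the MFG value of PWI goat 1, the array with 5 low CSN1S1 probes. The other 7 MSC values lay below all MFG values.

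The mean share was 6.31% ± 0.943 in MFG (SD, n = 8), 3.57% ± 0.883 in MSC and 0.000637% ± 0.00139 in PNCB. Two-sided exact permutation tests gave p = 0.000311 for MFG against MSC (adjusted over the 3 pairs of sources, 0.000311). Against PNCB the exact permutation test gave p = 0.000155 for both milk sources, the smallest it can give, or 0.000232 adjusted. The blood share was 0.00407% on PFI goat 1 and 0.000103% to 0.000299% on the other arrays. The tests treat the arrays of a source as independent, although the arrays of a group share a slide. They also treat the sources as unpaired, although these drew on the same 8 goats. A share of spot intensity is not a share of transcripts, since probes differ in how they bind.

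Breed was compared within each source. On the ratio and on Cy5 alone, 0 of 13 casein probes passed an adjusted p of 0.05 in limma in MSC, PNCB or MFG, over both milk sources, or for the difference between MFG and MSC in the breed difference. On the ratio, of all probes, 0% passed in MSC, 0.0109% in PNCB, 0.0146% in MFG, 0.00365% over both milk sources and 0% for the difference of differences. On Cy5 alone these shares were 0%, 0.0109%, 0.00365%, 0.00365% and 0%, in the same order. On the ratio, at an unadjusted p under 0.05, there were 0 casein probes in MSC, 0 in PNCB and 0 for the difference of differences. In MFG there were 2, and over both milk sources 2. The share of all probes at an unadjusted p under 0.05 is not given here for either scale. Counts at that level are therefore not read as a breed difference.

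In MFG, A_73_P468825 was 0.88 higher in PWI than in PFI (95% interval 0.08 to 1.67, adjusted p 0.539, limma) and A_73_P438506 was 0.34 higher (0.09 to 0.60, adjusted p 0.539). The first of these rests in part on the array of PWI goat 1 described above, and was 0.51 without it. With Cy5 alone its sign was the opposite. There A_73_P468825 stood at -0.77 in MFG (95% interval -2.21 to 0.68) and at -0.82 in MSC (-2.68 to 1.04). Over the milk sources together, A_73_P468825 stood at 0.66 (0.13 to 1.19, adjusted p 0.497) and A_73_111101 at 0.22 (0.011 to 0.44, adjusted p 0.521). With Cy5 alone, 3 CSN1S1 probes were lower in PWI over both milk sources at an unadjusted p under 0.05, A_73_P107876 by -1.41, A_73_P244615 by -0.59 and A_73_P393463 by -0.54, each with an adjusted p of 0.668 in limma.

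The intervals are wide. In MSC the probe differences, PWI minus PFI, ran from -0.77 to 0.44 and their 95% intervals reached from -2.09 to 1.41. With Cy5 alone, A_73_P107876 differed by -1.70 in MSC (-4.38 to 0.98) and by -1.13 in MFG (-3.15 to 0.90). These values moved to -0.53 without MSC PWI goat 3 and to -0.10 without MFG PWI goat 1. In MFG of PFI goats the 4 shares of signal lay within 6.43% and 6.87%, and in PWI goats within 4.49% and 7.54%.

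The accessions whose ratio followed that of the caseins most closely were sought among the 7539 accessions with a value on all 24 arrays. The measure was the Pearson r of the log2 ratio of each accession's brightest probe with the mean of the 13 casein probes. Over all 24 arrays the highest values belonged to TC471483 (r = 0.998), NM_173929 (r = 0.997) and NM_174378 (r = 0.996). TC471483 had mean log2 ratios of 6.57 in MFG, 5.46 in MSC and -0.0077 in PNCB, NM_173929 of 6.22, 5.08 and -0.083, and NM_174378 of 7.80, 5.80 and -0.079. All 3 were high in milk and at the reference level in blood. With each group's mean taken off, over the 16 milk arrays, the highest were the probe A_73_P162727 (r = 0.886), ENSBTAT00000053379 (r = 0.877) and NM_001076483 (r = 0.874). The highest mean log2 ratio of these last in a milk source was 0.94, that of NM_001076483 in MFG. The points share the reference, the slides and the normalization, and the r values are descriptions.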

How the data were processed

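RNA of 3 sources and 2 breeds was measured on 24 two-colour Agilent arrays of a cattle design (UMD 3.1, per the file headers). Spot and background intensity in both channels was deposited as Agilent Feature Extraction 10.7.3.1 wrote it, per the file headers, without normalization. The values in the authors' deposited table are log10 ratios, and they equal the scanner's own ratio of Cy5 to Cy3 (largest difference 0), so scale and direction are known. The log2 values were computed here.

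With R 4.3.3 and limma 3.58.1, normexp with an offset of 50 corrected the background, and loess within each array (span 0.3) normalized the ratios. Spots of a probe were averaged. Spots with a flag on the spot or its background stayed out of the normexp and loess fits. A flag on the local background alone cost a spot its value only where that background was at least 1% of its signal. This left 6 of 312 casein spots without a value, 1 of them on a milk array. Leaving out every flagged spot would have removed 87, of which 82 lie on milk arrays. The rule was settled after values with all background-flagged spots kept had been seen, and both other rules were run as alternatives.

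A probe was tested if all 4 arrays of some group had its Cy5 well above background, which left 27411, including all 13 casein probes. The casein probes met this rule through the milk groups and in no blood group. With no filter on dim probes, both comparisons with blood again called 13 of 13. Of all probes, 9816 of 43644 were then higher in MFG and 6469 of 43652 in MSC. Sources, and the difference between MFG and MSC in the breed difference, came from one limma fit with 6 group means, breeds within a source from fits of 8 arrays, and breed over both milk sources from 1 mean per goat number. Adjusted p-values are Benjamini-Hochberg values over all tested probes. Folds above the floor and shares are described with their values. The limma fits were tested on simulated log2 ratios with independent normal noise and known shifts in some probes. Slide, scan day, the movement of Cy3 and the normalization were not part of that simulation.

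The same goat numbers occur in each source. Deviations from group means of same-numbered arrays correlated between -0.264 and 0.325, over 0.1 in 9 of 24 pairs. Of these, 5 were among the 8 pairs of MSC with PNCB. Different-numbered arrays correlated between -0.335 and 0.272. The labels do not say that a number marks one animal across sources, so the main tests did not pair arrays, and averaging by number over both milk sources is the exception. With 8 goats and 8 arrays per source, the sources drew on the same animals. MSC, PNCB and MFG arrays are therefore not independent, whichever numbers belong to one goat.

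The members, probes and lists were chosen with earlier results of these data known. All casein probes are named. The accessions most like them are the 3 with the highest r over 24 arrays, and over the 16 milk arrays with group means taken off. Lists of other milk secretion genes and of cell type markers were not run, since 0 of 26748 accessions matched the gene table provided. For the same reason no sequence is shown.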

Additional observations from a re-analysis of the deposited data

Results flagged for a closer look

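Groups of 4 arrays were checked for 1 value far from the other 3, for log2 ratios and log2 net Cy5 of each probe and for the share of signal. Of 156 such groups 22 stood out, where chance gives about 1 in 20, or 7.8. The probes share arrays, so these are not independent.

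On blood PFI goat 1 the highest value stood apart for log2 ratios of 1.80 (A_73_100438), 0.79 (A_73_P050936), 1.26 (A_73_P266861), 1.07 (A_73_P468873) and 1.33 (A_73_111101). The same array stood apart for a log2 net Cy5 of 8.96 (A_73_100438) and 7.53 (A_73_111101) and for a casein share of 0.00407%. Of the other blood arrays, PWI goat 3 had the lowest log2 ratio of A_73_P468825, -1.42, and PWI goat 1 the lowest of A_73_P266861, -0.34. PWI goat 4 had the highest share among the PWI blood arrays, 0.000299%.

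In MFG of PWI goat 1, log2 net Cy5 was 14.28 at A_73_P050936, 11.69 at A_73_P107876, 14.94 at A_73_P244615, 15.21 at A_73_P393463 and 14.30 at A_73_P468825, each far below the other PWI goats. The other 3 arrays of the group lay between 16.58 and 18.02 for these probes. Leaving this array out kept 12 of 13 casein probes higher in MFG than in MSC on the ratio, where 2741 of all 27401 probes were.

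Smaller gaps were seen on milk arrays in other places. PFI goat 1 was highest for the log2 ratio of A_73_P244615 in MSC (6.70) and for log2 net Cy5 of A_73_P107876 in MFG (17.04). PFI goat 3 was highest in MFG for log2 net Cy5 of A_73_P468825 (18.16) and A_73_104286 (18.01). PWI goat 4 was highest in MSC for the log2 ratio of A_73_P438506 (6.29) and lowest in MFG for log2 net Cy5 of A_73_P287836 (18.26).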

How the results depend on the processing

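Both comparisons with blood gave 13 of 13 probes under all alternatives that kept all 13. Of all probes, 3658 to 15015 were higher in MFG and 3263 to 11807 in MSC under these. Breed gave 0 throughout, where 0 to 44 of all probes passed. The count for MFG against MSC fell from 12 to 2 with Cy5 alone, and with Cy5 alone it was 4 without MFG PWI goat 1, 2 without MSC PWI goat 3 and 3 without blood PFI goat 1. With these arrays left out, 6474 of 27401, 5750 of 27404 and 6271 of 27405 of all probes were higher, in that order. It was 8 with median centring, 10 from processed scanner signals or the deposited table, and 10 of the 10 probes left when every flagged spot was removed. Of all probes, 868, 2421 and 2419 of 27405 and 3462 of 27383 were higher, in that order. Leaving out any goat number gave 12, where 2048 to 4708 of all probes were higher. Among the 12 probes called in the main fit, 3 directions turned, with no call. A_73_P266861 stood at -0.091 with Cy5 alone, and there at -0.118, -0.094 and -0.091 with the same arrays left out in that order. A_73_P050936 stood at -0.055 with Cy5 alone without MSC PWI goat 3, and A_73_P438506 at -0.31 with median centring. The causes of these turns were not tested. Over all 13 probes the lowest difference was -0.35 with median centring and -0.31 with Cy5 alone without MSC PWI goat 3. Probes uncalled both ways had the other sign in 284 of 1778 repeats. With the goat number as a block, 12 of 13 probes were again higher in MFG than in MSC, with a median of 1.83, and it changed no call of any casein probe. Of all probes, 3490 of 27404 were higher in that fit. For the casein share of net Cy5 signal, MFG against MSC, pairing by goat number gave an adjusted p of 0.00781 (exact permutation), and leaving out each goat number in turn gave differences of 2.38 to 3.08 percentage points. The planned relation of casein levels in MFG and MSC of one goat, with its 3 alternatives, was not run. The labels do not say that a number marks one animal across sources.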
